A study of Mus musculus with 22 samples.

Results

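The genes described here were 36 genes of inflammatory cytokine and NF-kB signalling, taken from a list by name out of the 35596 genes to which the sequenced transcripts belonged. They were measured in microglia, the resident macrophages of neural tissue, from the retinas of 12-week-old mice. All 22 libraries came from eyes that had received apoptotic neurons by intravitreal injection, with cells profiled 24 hours later per the file headers, so that no group shows retinal microglia before exposure to dead neurons. The groups were Apoe-/- phagocytic (n = 6), Apoe-/- non-phagocytic (n = 6), wild-type phagocytic (n = 5) and wild-type non-phagocytic cells (n = 5). Apoe encodes apolipoprotein E, a lipid carrier. Wild-type mice were of the strain C57BL/6, and the Apoe-/- mice carry only the strain label Apoe KO, with no allele named. Cells were sorted as CD11b+, Fcrls+ and Ly6c-, and phagocytic cells were those with an Alexa488 signal. Each sample pooled 5 to 6 retinas by sex and genotype, and lysates held 100 to 300 cells per 5 µl. The study asked whether apoptotic neurons bring retinal microglia into a state that depends on Apoe. The comparisons here ask how the inflammatory genes differed between sorts and genotypes.

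NF-kB is a family of dimeric transcription factors that resting cells hold in the cytoplasm, bound to inhibitor proteins called IkB. Signals from the interleukin-1, tumour necrosis factor and Toll-like receptors lead to the loss of these inhibitors, and the freed dimers drive cytokine genes together with genes that end the signal. In microglia, engulfment of dying cells is commonly described as an anti-inflammatory event, while several of these cytokine genes are also induced by the handling of the cells before sorting.

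Binding letters of NF-kB were looked for in the 250 bases before the transcription start, since several members are textbook targets of the factor. RefSeq promoter windows (build GRCm38.p6) matched 28 of the 36 members by symbol. The NF-kB consensus, 10 letters long and searched on both strands with overlapping matches kept, was found in 11 of these 28 members (39.3%) and in 8.23% of all 27025 genes with a window. The members that held it were Il6, Nfkb2, Rel, Nfkbia, Nfkbid, Nfkbie, Tnfaip3, Tnip1, Nlrp3, Casp4 and Tnfaip2. Shown here are the 150 bases before the start of 5 of them and of Il1rn, the member with the smallest p below, with every matched base in capitals. They lie at chr12:55492648-55492797, minus strand (Nfkbia), chr10:19015411-19015560, minus strand (Tnfaip3), chr11:54962941-54963090, minus strand (Tnip1), chr19:46304587-46304736, plus strand (Nfkb2), chr5:30012964-30013113, plus strand (Il6) and chr2:24336710-24336859, plus strand (Il1rn), each read 5′ to 3′ on the strand of its gene.
Nfkbia: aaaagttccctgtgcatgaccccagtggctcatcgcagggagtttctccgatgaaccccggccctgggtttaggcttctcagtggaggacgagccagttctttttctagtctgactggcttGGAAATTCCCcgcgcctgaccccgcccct
Tnfaip3: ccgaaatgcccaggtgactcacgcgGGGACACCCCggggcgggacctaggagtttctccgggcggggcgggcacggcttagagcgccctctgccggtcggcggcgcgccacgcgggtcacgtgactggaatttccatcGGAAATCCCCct
Tnip1: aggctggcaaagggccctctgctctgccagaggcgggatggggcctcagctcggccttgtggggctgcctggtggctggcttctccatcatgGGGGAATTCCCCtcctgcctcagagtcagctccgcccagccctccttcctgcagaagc
Nfkb2: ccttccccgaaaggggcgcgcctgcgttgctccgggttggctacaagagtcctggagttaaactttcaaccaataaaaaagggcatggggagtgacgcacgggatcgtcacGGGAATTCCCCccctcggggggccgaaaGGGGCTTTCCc
Il6: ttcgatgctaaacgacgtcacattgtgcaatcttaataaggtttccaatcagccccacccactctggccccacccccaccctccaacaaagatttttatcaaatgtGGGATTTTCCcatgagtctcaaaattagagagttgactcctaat
Il1rn: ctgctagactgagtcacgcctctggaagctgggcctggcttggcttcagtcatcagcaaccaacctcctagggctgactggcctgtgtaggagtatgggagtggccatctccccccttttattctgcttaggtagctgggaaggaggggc
Nfkbia and Il6 held 1 match each, beginning 29 and 44 bases before the start. Tnfaip3 held 2, beginning 125 and 12 bases before it. Tnip1 held 3 overlapping matches in a single symmetric run, and Nfkb2 held 3, of which 2 overlap. The window of Il1rn held none, which says only that these letters are absent from it. Tnfaip3 has 2 promoter windows and Nfkb2 and Il1rn have 3 each, of which the first listed is shown. The windows shown for Tnfaip3 and Nfkb2 lie inside the annotated genes, downstream of their outermost start. In the counts above, a gene held the consensus where any of its windows did. A match describes the sequence and was not tested for binding.

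Depth was modest and uneven. Libraries held 1133577 to 3649436 estimated reads over 16547 to 21776 detected genes, and 12 satellite-like predicted genes took 9.14% to 51.7% of them. Apoe lay between 7.02 and 34.9 CPM (read counts scaled for depth) in Apoe-/- libraries and between 869 and 5145 CPM in wild-type libraries. The microglial markers, 12 in number, were all detected in every group and summed to 5311 to 21375 CPM per library. The 12 neutrophil markers summed to 204 to 1174 CPM per library, although Ly6g, which is among them, had only 1 read in each group. Y-linked reads (Ddx3y plus Eif2s3y) numbered 0 to 4 in both sorts of Apoe-/- replicates 4, 5 and 6 and of wild-type replicate 5, and 52 to 255 in the other 14 libraries, so that sexes were unevenly spread over the genotypes. Replicates were pools, and p-values measure the spread between libraries of a group, each taken as an independent pool. The labels do not say whether same-numbered libraries of both sorts share a pool. In such bulk samples, fewer cells of a type and less RNA per cell cannot be told apart.

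Most of these genes were active in all groups. Reads were found in all 22 libraries for 31 of the 36 members. Per transcript length, the order by median TPM over the 22 libraries (transcript abundance per length, the deposited unit) was led by Nfkbia with 347, Il1rn with 129.9, Il1b with 127, Tnf with 103 and Socs3 with 103 TPM. The next in this order were Tnfrsf1b with 57.9, Il1a with 57.2 and Icam1 with 50.8 TPM. Neighbours in this order were closer than their spread, for Il1rn itself ran between 7.40 and 590.3 TPM. At the low end stood Ripk2 with 4.07, Il10 with 0.321 and Nos2 with 0.283 TPM. TPM counts the satellite-like transcripts in its total, so groups were compared on CPM and TPM is used for order only.

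**Figure D1:**
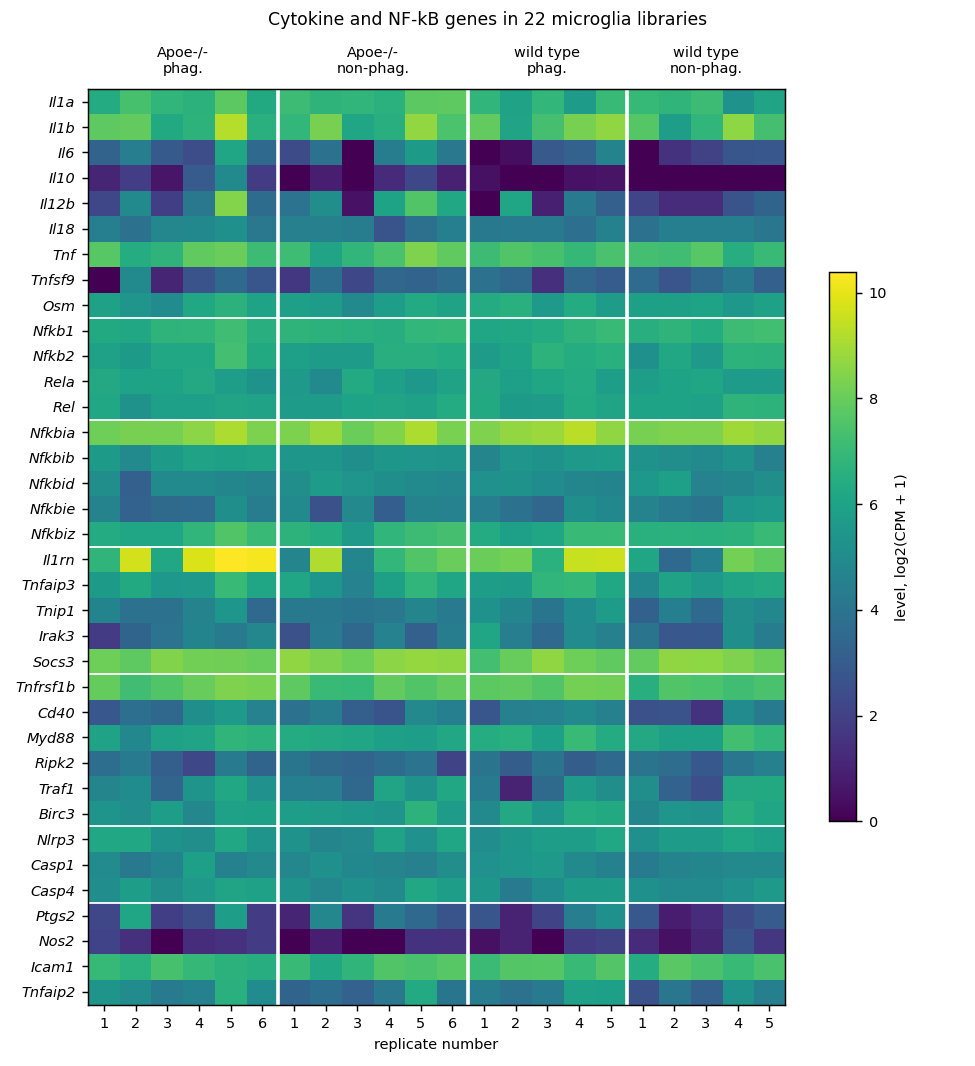
Levels of the 36 members (rows, by role: cytokines, NF-kB subunits, IkB inhibitors, feedback genes, receptors and adaptors, inflammasome, effectors) in the 22 libraries (columns, by group and replicate number), as log2(CPM + 1) in colour. Nfkbia and Socs3 are bright in every library, Il1rn is bright mainly in phagocytic libraries, and Il10 and Nos2 are dark nearly throughout.

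None of the members passed the threshold in any of 6 comparisons with the libraries taken as unpaired. Of the 36, 34 had enough reads to be tested (Il10 and Nos2 did not), with edgeR (quasi-likelihood) and p adjusted by Benjamini-Hochberg over 12415 genes at 0.05. Between the sorts averaged over both genotypes, 0 of 34 members were called, against 2.36% of all genes tested. At an unadjusted p under 0.05 stood 6 members (17.6%), against 14.5% of all genes. Within Apoe-/- cells 0 members were called against a background of 0.467%, and 2 members (5.88%) had an unadjusted p under 0.05 against 9.93%. Within wild-type cells 0 were called against 0.209%, and 2 (5.88%) had such a p against 7.74%. The genotype comparison in phagocytic cells called 0 members against 0.0322% of all genes, with 1 member (2.94%) against 6.62% under an unadjusted 0.05. That in non-phagocytic cells called 0 against 0.0161%, with 2 (5.88%) against 3.8%. For the interaction of genotype and sort, 0 members and 0% of all genes were called, and 0 members against 2.42% had an unadjusted p under 0.05. DESeq2's test called 0 members in all 6 comparisons. The shares of members were near or below those of all genes except, by a small margin, in the averaged sort comparison and in non-phagocytic cells between the genotypes.

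Groups also overlapped for every tested member. No tested member had all libraries of a group beyond all of the other, either between sorts in Apoe-/- cells (0.87% of all genes tested did) or in wild-type cells (2.14%), or between genotypes in phagocytic (0.789%) or non-phagocytic cells (0.298%). Il10, too low for the test, did not overlap between the genotypes in phagocytic cells. Its lowest Apoe-/- library had 0.557 CPM and its highest wild-type library 0.444 CPM, with 56 and 3 reads over the groups. The wild-type value stands for 1 read, so the gap between these 2 values lies within counting error. The Apoe-/- reads were concentrated in replicate 5 (30.6 CPM). The shares above cover tested genes only, so that Il10 has no background share beside it. The median log2 fold change of the tested members, phagocytic over non-phagocytic, was 0.12 in Apoe-/- and 0.19 in wild-type cells, against -0.02 and -0.01 over all genes. Apoe-/- over wild type, it was 0.04 in each sort, against -0.004 in phagocytic and -0.0021 in non-phagocytic cells over all genes.

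**Figure D2:**
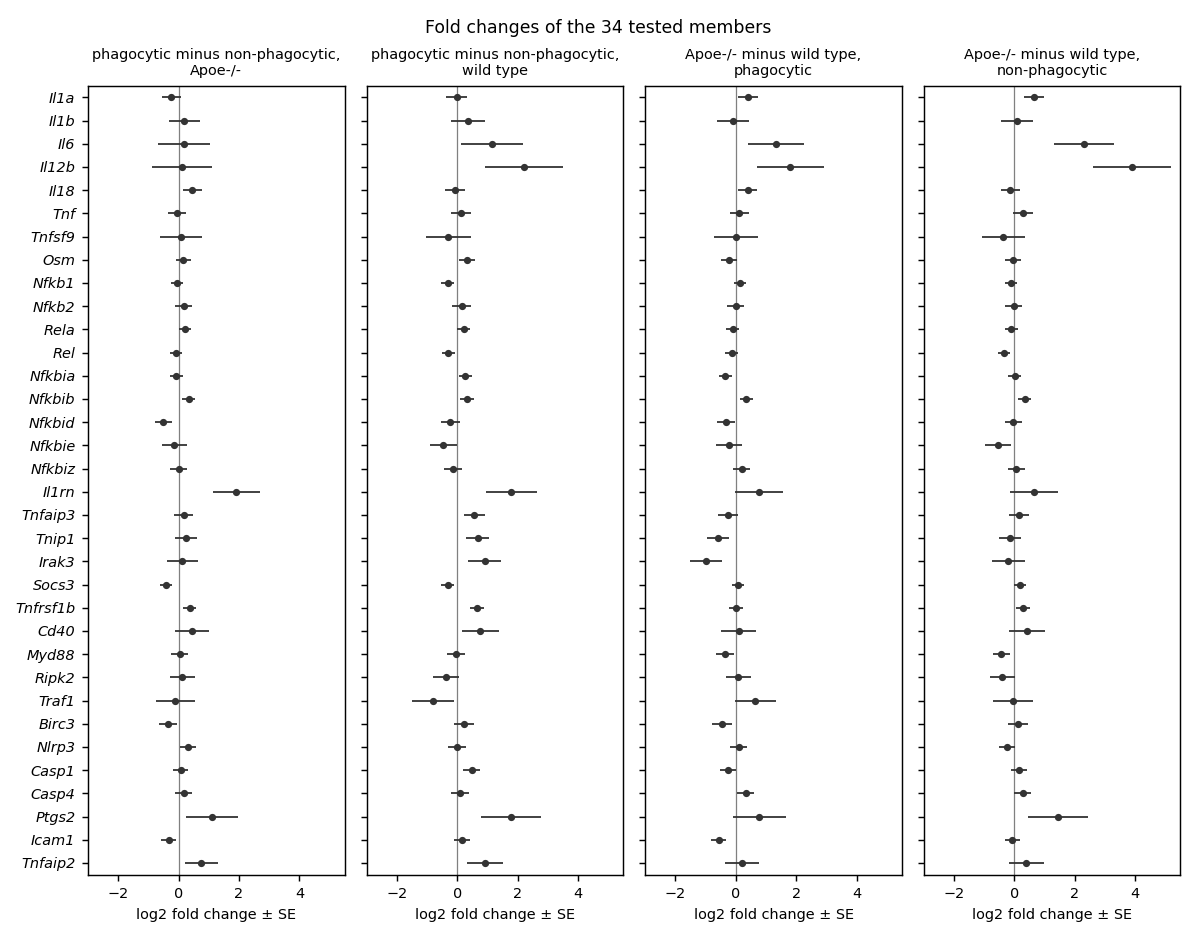
Log2 fold change (points) with its standard error (bars) of the 34 tested members in 4 comparisons, the sorts within each genotype and the genotypes within each sort. Il1rn stands right of 0 in both comparisons of the sorts (1.92 and 1.80), and Il12b and Il6 stand right of 0 between the genotypes with wide bars.

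The member nearest to a call belonged to the interleukin-1 system, Il1rn. Its mean level was 3.62-fold higher in phagocytic cells without passing the threshold in the unpaired fit. Il1rn (chr2:24336853-24351494 in build mm10) encodes the interleukin-1 receptor antagonist, a secreted protein that occupies the interleukin-1 receptor without signalling. It had 73.5, 849.7 and 1343 CPM as lowest, median and highest in Apoe-/- phagocytic and 25.6, 154 and 571 CPM in Apoe-/- non-phagocytic libraries. In wild-type cells it had 266, 295, 99, 743 and 768 CPM in the 5 phagocytic and 68.3, 10.8, 21.6, 299 and 226 CPM in the 5 non-phagocytic libraries. Of the 11 phagocytic libraries, 6 lay above the highest non-phagocytic library of either genotype (571 CPM), while the lowest phagocytic libraries lay within the non-phagocytic range. The log2 fold change was 1.92 ± 0.78 in Apoe-/- cells (3.77-fold; edgeR adjusted p = 0.388) and 1.80 ± 0.85 in wild-type cells (3.48-fold; edgeR adjusted p = 0.629). Averaged over the genotypes it was 1.86 ± 0.58 (edgeR adjusted p = 0.089), the smallest adjusted p of any member in any comparison. The interaction of genotype and sort (Apoe-/- minus wild type) was 0.12 ± 1.12 on the log2 scale (edgeR adjusted p = 1). Its SE spans differences in either direction. Between the genotypes the log2 fold change of Il1rn was 0.77 ± 0.80 in phagocytic and 0.65 ± 0.81 in non-phagocytic cells (edgeR adjusted p = 0.885 and 0.999).

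The averaged call for Il1rn turned on the settings. With the replicate number as a block Il1rn passed, averaged and within each genotype, with values given at the end. That block is an alternative only, since the labels do not say whether same-numbered libraries share a pool. Among other settings Il1rn passed with the satellite-like share of each library as a covariate (log2 2.62, edgeR adjusted p = 0.00169) and without the filter on low counts (1.87, edgeR adjusted p = 2.44e-07). It also passed without wild-type non-phagocytic replicate 4 (2.17, edgeR adjusted p = 0.0472) or Apoe-/- non-phagocytic replicate 2 (2.19, edgeR adjusted p = 0.0428). These 2 were the highest non-phagocytic libraries for the gene in their genotypes. The same 2 had the highest neutrophil marker sums of their groups. Wild-type non-phagocytic replicate 4 had 854 CPM against 232 to 326 CPM in the others. Apoe-/- non-phagocytic replicate 2 had 856 CPM against 204 to 335 CPM. Phagocytic libraries had sums of 322 to 449 CPM in Apoe-/- and 246 to 1174 CPM in wild-type cells. Those 2 non-phagocytic libraries also had the lowest microglial sums of their groups, 5584 CPM in the wild-type and 8044 CPM in the Apoe-/- library. In monocyte markers they were opposite, with the highest sum of its group in the wild-type (6711 CPM) and the lowest in the Apoe-/- library (844 CPM). Markers of other myeloid cells differed in how they moved with the sort. The 12 monocyte genes, all detected, summed to 2510 to 4803 CPM in Apoe-/- phagocytic against 844 to 2074 CPM in Apoe-/- non-phagocytic, and to 4347 to 10639 CPM in wild-type phagocytic against 1339 to 6711 CPM in wild-type non-phagocytic libraries. Most of that difference was Lyz2, the lysozyme gene, which averaged 2409 CPM in Apoe-/- phagocytic, 605 CPM in Apoe-/- non-phagocytic, 5107 CPM in wild-type phagocytic and 1342 CPM in wild-type non-phagocytic libraries. The other 11 monocyte genes summed to 962 ± 389 CPM in Apoe-/- phagocytic against 926 ± 281 CPM in Apoe-/- non-phagocytic, and to 2288 ± 957 CPM in wild-type phagocytic against 1520 ± 1178 CPM in wild-type non-phagocytic libraries (SD). Ccr2, a chemokine receptor of monocytes, averaged 44.2 CPM in Apoe-/- phagocytic against 81.4 CPM in Apoe-/- non-phagocytic, and 154 CPM in wild-type phagocytic against 179 CPM in wild-type non-phagocytic libraries. Of the 12, 7 had the higher mean in phagocytic cells and 5 the lower in each genotype. Genes of border macrophages, 12 in number and with Cd209f at 0 in wild-type cells, summed to 592 to 1286 CPM in Apoe-/- phagocytic against 288 to 439 CPM in Apoe-/- non-phagocytic, and to 599.7 to 1057 CPM in wild-type phagocytic against 294 to 484 CPM in wild-type non-phagocytic libraries. In the averaged comparison 8 of the 10 border macrophage genes tested were called higher in phagocytic cells and 0 lower (edgeR), against 223 higher and 70 lower of all 12415 genes tested. Ly6c2, the monocyte gene the sort selects against, averaged 4.74 ± 3.81 CPM in Apoe-/- phagocytic, 4.52 ± 3.01 CPM in Apoe-/- non-phagocytic, 24.7 ± 30.0 CPM in wild-type phagocytic and 15.5 ± 23.3 CPM in wild-type non-phagocytic libraries (SD). The part of such cells in the Il1rn levels was not tested.

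**Figure D3:**
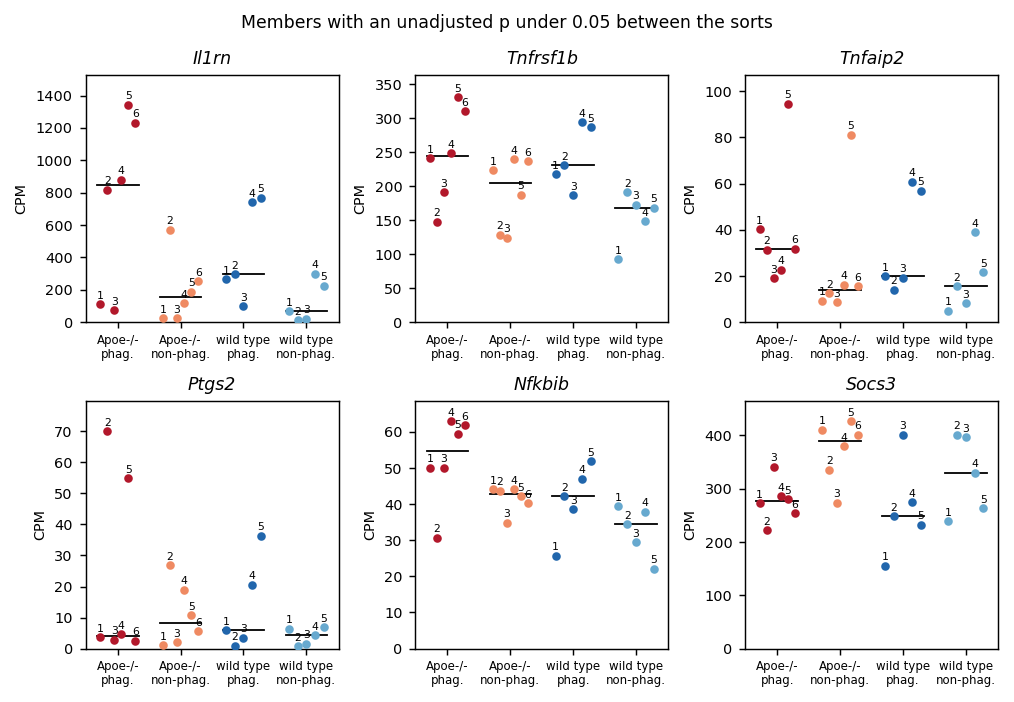
CPM of the 6 members with an unadjusted p under 0.05 between the sorts averaged over the genotypes, 1 point per library with its replicate number and a line at each group's median, on a linear axis from 0. Il1rn has medians of 849.7 CPM in Apoe-/- phagocytic, 154 CPM in Apoe-/- non-phagocytic, 295 CPM in wild-type phagocytic and 68.3 CPM in wild-type non-phagocytic libraries, and all 6 genes overlap between the sorts.

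The agonists of the same receptor had levels that overlapped widely between the sorts. Il1b, the secreted interleukin-1 cytokine that needs cleavage by caspase-1, had 78, 162 and 604 CPM as lowest, median and highest in Apoe-/- phagocytic and 68.4, 145 and 420.2 CPM in Apoe-/- non-phagocytic libraries. Wild-type libraries held 235, 66.9, 162, 306 and 411 CPM of Il1b in phagocytic and 201, 53.5, 113, 391 and 159 CPM in non-phagocytic cells. Each group spanned more than the distance between the groups. Il1a, its relative that is active without cleavage, had group medians of 107 CPM in Apoe-/- phagocytic, 125 CPM in Apoe-/- non-phagocytic, 112 CPM in wild-type phagocytic and 109 CPM in wild-type non-phagocytic libraries (50.4 to 57.7 TPM). Il18, another cytokine matured by caspase-1, had medians of 24.4 CPM in Apoe-/- phagocytic, 20.4 CPM in Apoe-/- non-phagocytic, 18.4 CPM in wild-type phagocytic and 21.3 CPM in wild-type non-phagocytic libraries (19.4 to 37.3 TPM), within 5.41 to 36 CPM over all libraries.

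Tnfrsf1b, the second receptor for tumour necrosis factor, was the other member near a call between the sorts. Its libraries held 148, 245 and 331 CPM as lowest, median and highest in Apoe-/- phagocytic and 124, 205 and 239 CPM in Apoe-/- non-phagocytic cells. In wild-type cells they held 218, 231, 187, 294 and 287 CPM in phagocytic and 92.3, 191, 173, 149 and 169 CPM in non-phagocytic cells. The wild-type sorts overlapped through a single pair of libraries, phagocytic replicate 3 and non-phagocytic replicate 2. The averaged log2 fold change was 0.51 ± 0.16 (edgeR adjusted p = 0.104) and that in wild-type cells 0.65 ± 0.24 (edgeR adjusted p = 0.442). With the replicate number as a block the averaged difference of Tnfrsf1b passed the threshold, as given at the end. Its ligand Tnf showed no such order, with 85.3, 171 and 258 CPM in Apoe-/- phagocytic, 65.5, 157 and 336 CPM in Apoe-/- non-phagocytic, 139.8, 191, 165, 119 and 170.1 CPM in wild-type phagocytic and 154, 148, 205, 88.9 and 126 CPM in wild-type non-phagocytic libraries (lowest, median and highest for groups of 6). Tnfsf9, the ligand of the T cell receptor 4-1BB, was low throughout, with medians of 5.58 CPM in Apoe-/- phagocytic, 9.36 CPM in Apoe-/- non-phagocytic, 9.84 CPM in wild-type phagocytic and 10.4 CPM in wild-type non-phagocytic libraries (3.98 to 7.62 TPM).

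Il12b, Il6 and Il10 varied widely between libraries of the same group. Il12b encodes the p40 chain that interleukins 12 and 23 share. It had 2.78, 14.2 and 351 CPM as lowest, median and highest in Apoe-/- phagocytic, 0.415, 49 and 191 CPM in Apoe-/- non-phagocytic, 0, 67.9, 0.857, 18 and 7.99 CPM in wild-type phagocytic and 3.52, 1.5, 1.49, 5.42 and 9.1 CPM in wild-type non-phagocytic libraries. Of the 6 Apoe-/- non-phagocytic libraries, 5 lay above all wild-type non-phagocytic ones. The log2 fold change between these groups was 3.91 ± 1.29 (edgeR adjusted p = 0.999). Il6, a cytokine of fever and acute inflammation, had 4.55, 9.84 and 68.5 CPM in Apoe-/- phagocytic, 0, 15.5 and 49.7 CPM in Apoe-/- non-phagocytic, 0, 0.322, 6.43, 8.56 and 24 CPM in wild-type phagocytic and 0, 1.87, 2.98, 5.96 and 6.07 CPM in wild-type non-phagocytic libraries, given as for Il12b. In non-phagocytic cells its log2 fold change, Apoe-/- over wild type, was 2.31 ± 1.00 (edgeR adjusted p = 0.999).

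The size of both differences rested partly on replicate 5 of the Apoe-/- groups. Without both Apoe-/- libraries of that number the log2 fold change in non-phagocytic cells was 3.17 ± 1.04 for Il12b (edgeR adjusted p = 0.999) and 1.67 ± 0.97 for Il6 (edgeR adjusted p = 0.999). Among the replicates with 52 or more Y-linked reads, Il12b had 14.7, 34.5 and 0.415 CPM in Apoe-/- and 3.52, 1.5, 1.49 and 5.42 CPM in wild-type libraries of non-phagocytic cells. These Apoe-/- libraries all lay below the median of their group (49 CPM). The highest library of each group, at 191 CPM in Apoe-/- and 9.1 CPM in wild-type cells, had 0 to 4 Y-linked reads. Only replicate 5 was of that kind in wild-type cells, and the part of sex in the Il12b difference was not tested. Dendritic cell markers, 10 genes all detected, summed to 142 to 316 CPM in Apoe-/- and 92.0 to 861 CPM in wild-type non-phagocytic libraries, and their part in the Il12b levels was not tested. Il10, the anti-inflammatory cytokine, had too few reads for the test. It had 0.557, 2.6 and 30.6 CPM in Apoe-/- phagocytic, 0, 0.878 and 3.77 CPM in Apoe-/- non-phagocytic and 0.39, 0, 0, 0.428 and 0.444 CPM in wild-type phagocytic libraries, and 0 reads in every wild-type non-phagocytic library, which allows up to 0.275 CPM over that group (3 reads, counting error only). Osm, which encodes the interleukin-6 relative oncostatin M, stayed within 30.7 to 103 CPM, with medians of 62.6 CPM in Apoe-/- phagocytic, 55.8 CPM in Apoe-/- non-phagocytic, 82.8 CPM in wild-type phagocytic and 59.8 CPM in wild-type non-phagocytic libraries (23.3 to 35.6 TPM).

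**Figure D4:**
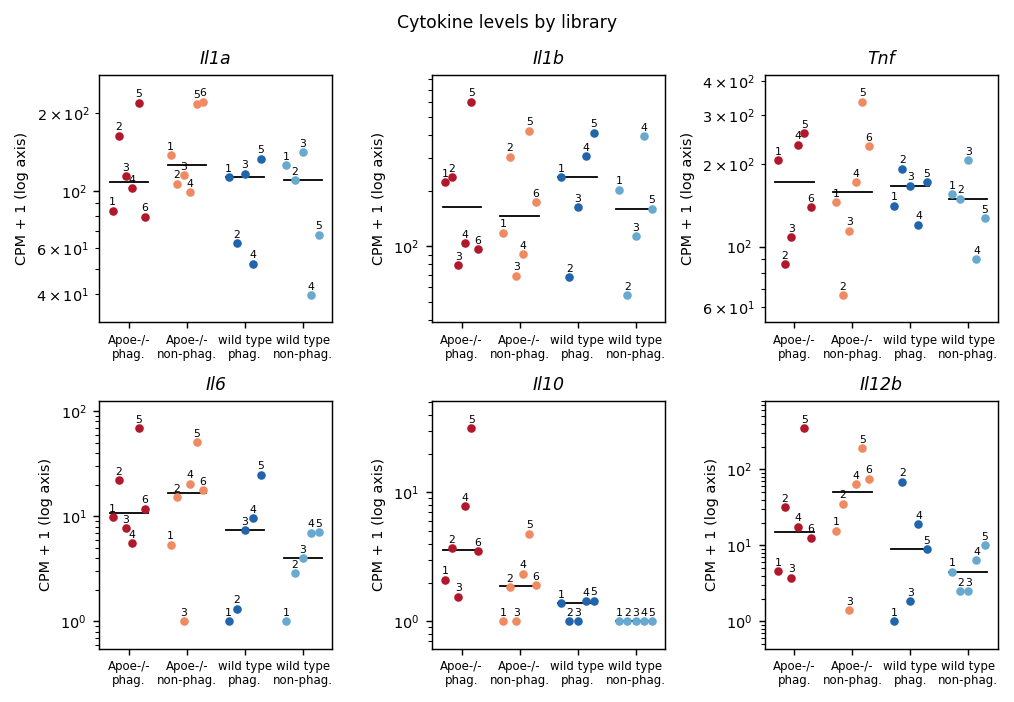
CPM + 1 of 6 cytokine genes on a log axis, 1 point per library with its replicate number and a line at each group's median. Replicate 5 is the highest Apoe-/- phagocytic library for all 6 genes, and Il10 sits at 0 reads (1 on this axis) in every wild-type non-phagocytic library.

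A single library held the highest level of many members. Apoe-/- phagocytic replicate 5 had the highest CPM of 12 of the 34 tested members (35.3%) and of 4.82% of all genes tested. These were Il1b, Il6, Il12b, Il18, Osm, Nfkb2, Nfkbiz, Il1rn, Tnfaip3, Tnfrsf1b, Cd40 and Tnfaip2. Apoe-/- non-phagocytic replicate 5 had the highest of 4 more (Tnf, Socs3, Birc3 and Casp4; 11.8%, against 6.81% of all genes). The phagocytic library also had the fewest reads of all 22 (1133577) and a microglial marker sum of 5418 CPM, the lowest of its group. Its sum over 23 immediate early and dissociation genes was 6014 CPM, the highest of its group. The part of these in its cytokine levels was not tested.

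**Figure D5:**
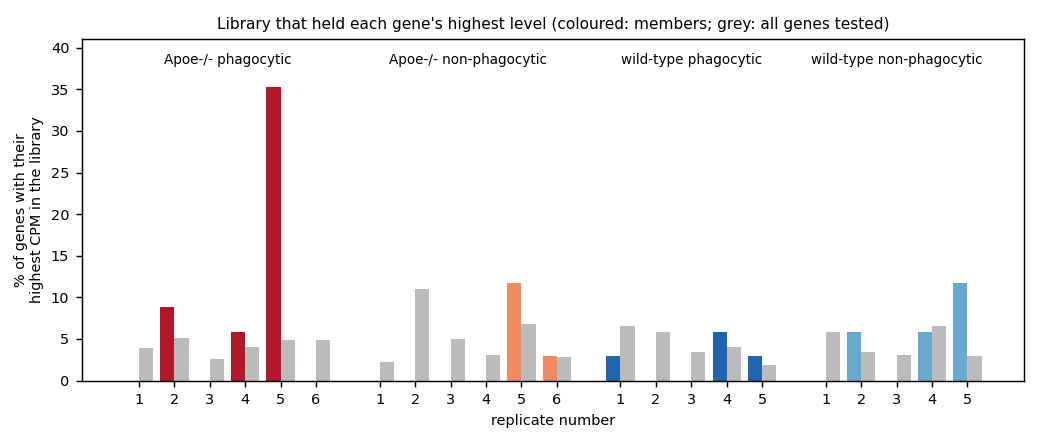
Percent of genes that had their highest CPM in each library, for the 34 tested members (coloured bars) and for all genes tested (grey bars). Apoe-/- phagocytic replicate 5 holds 35.3% of the members against 4.82% of all genes.

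The NF-kB subunits lay close together in all groups. Nfkb1, the source of the p50 subunit, had medians of 100.0 CPM in Apoe-/- phagocytic, 105 CPM in Apoe-/- non-phagocytic, 82.3 CPM in wild-type phagocytic and 108 CPM in wild-type non-phagocytic libraries (31.9 to 50.3 TPM). Nfkb2, the source of p52 in the non-canonical pathway, had medians of 71.3 CPM in Apoe-/- phagocytic, 70.0 CPM in Apoe-/- non-phagocytic, 86.4 CPM in wild-type phagocytic and 72.2 CPM in wild-type non-phagocytic libraries (15.7 to 28.3 TPM). Rela encodes the main activating subunit p65, with medians of 64.4 CPM in Apoe-/- phagocytic, 52.6 CPM in Apoe-/- non-phagocytic, 67.3 CPM in wild-type phagocytic and 53.6 CPM in wild-type non-phagocytic libraries (17.2 to 26.3 TPM). Rel, or c-Rel, a subunit known for driving Il12b in myeloid cells, had medians of 59.4 CPM in Apoe-/- phagocytic, 63.1 CPM in Apoe-/- non-phagocytic, 67.1 CPM in wild-type phagocytic and 65.1 CPM in wild-type non-phagocytic libraries (7.24 to 11.1 TPM). Averaged over the genotypes, 2 of the 4 subunits had positive and 2 negative log2 fold changes between the sorts, within -0.20 and 0.21, and the smallest adjusted p was 0.599 (edgeR).

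Among the IkB inhibitors, Nfkbib had the smallest p between the sorts. It encodes IkB-beta, and had 30.8, 54.8 and 62.9 CPM as lowest, median and highest in Apoe-/- phagocytic and 34.8, 42.9 and 44.2 CPM in Apoe-/- non-phagocytic libraries. In wild-type cells it had 25.8, 42.1, 38.6, 47.1 and 52 CPM in phagocytic and 39.5, 34.4, 29.5, 37.9 and 22.1 CPM in non-phagocytic libraries. All Apoe-/- phagocytic libraries but replicate 2 lay above every Apoe-/- non-phagocytic library. The averaged log2 fold change was 0.33 ± 0.15 (edgeR adjusted p = 0.304). Nfkbia, the IkB-alpha gene that NF-kB itself induces and whose promoter match is shown above, was the most abundant member. It had 269.5, 316 and 552 CPM in Apoe-/- phagocytic, 269, 332 and 556 CPM in Apoe-/- non-phagocytic, 333, 420.2, 450.2, 644 and 408 CPM in wild-type phagocytic and 307, 333, 335, 474 and 417 CPM in wild-type non-phagocytic libraries, so that the highest library of all was less than 3 times the lowest.

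The other inhibitors gave no call. Nfkbid, a nuclear IkB protein, had medians of 27.8 CPM in Apoe-/- phagocytic, 34.5 CPM in Apoe-/- non-phagocytic, 32.2 CPM in wild-type phagocytic and 33.8 CPM in wild-type non-phagocytic libraries (14.5 to 21.2 TPM). Nfkbie, the IkB-epsilon gene, had medians of 15.7 CPM in Apoe-/- phagocytic, 23.7 CPM in Apoe-/- non-phagocytic, 20.7 CPM in wild-type phagocytic and 24 CPM in wild-type non-phagocytic libraries (5.42 to 10.6 TPM). Nfkbiz, a nuclear IkB protein needed for Il6 induction, had medians of 99.7 CPM in Apoe-/- phagocytic, 109 CPM in Apoe-/- non-phagocytic, 83.6 CPM in wild-type phagocytic and 99.8 CPM in wild-type non-phagocytic libraries (26.6 to 31.4 TPM). Of the 5 inhibitors, 2 had positive and 3 negative averaged log2 fold changes between the sorts.

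Of the feedback genes, Socs3 was the member that was lower in phagocytic cells at an unadjusted p under 0.05. It encodes an inhibitor of signalling by interleukin-6 type receptors. It had 222, 277 and 341 CPM as lowest, median and highest in Apoe-/- phagocytic and 274, 390.3 and 427 CPM in Apoe-/- non-phagocytic libraries, and 156, 249, 402, 274 and 232 CPM in wild-type phagocytic and 239.6, 402, 397, 330.1 and 263 CPM in wild-type non-phagocytic libraries. The ranges overlapped in both genotypes. The log2 fold change was -0.43 ± 0.20 in Apoe-/- cells (edgeR adjusted p = 0.451) and -0.37 ± 0.14 averaged over the genotypes (edgeR adjusted p = 0.201). A list of 23 immediate early and dissociation genes moved the same way, with 5 of its genes called lower and 0 higher in the averaged comparison. Over all 12415 genes tested, 70 were called lower and 223 higher there. Summed, this list had 3604 to 6014 CPM in Apoe-/- phagocytic against 6106 to 7558 CPM in Apoe-/- non-phagocytic, and 4584 to 5743 CPM in wild-type phagocytic against 5512 to 7486 CPM in wild-type non-phagocytic libraries. The part of handling in the Socs3 difference was not tested.

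The remaining feedback genes act inside the pathway. Tnfaip3 encodes the ubiquitin-editing enzyme A20 and Tnip1 its binding partner. Tnfaip3 had medians of 59.6 CPM in Apoe-/- phagocytic, 63.5 CPM in Apoe-/- non-phagocytic, 74.2 CPM in wild-type phagocytic and 62.1 CPM in wild-type non-phagocytic libraries (10.5 to 21.7 TPM). Tnip1 had medians of 19.1 CPM in Apoe-/- phagocytic, 17.5 CPM in Apoe-/- non-phagocytic, 32.1 CPM in wild-type phagocytic and 21.3 CPM in wild-type non-phagocytic libraries (7.03 to 13 TPM). Irak3, a kinase relative that holds back Toll-like receptor signalling, had medians of 16.2 CPM in Apoe-/- phagocytic, 14.2 CPM in Apoe-/- non-phagocytic, 21.8 CPM in wild-type phagocytic and 14.8 CPM in wild-type non-phagocytic libraries (2.87 to 9.07 TPM), and its highest level, 68.7 CPM, was in wild-type phagocytic replicate 1. No difference of these 3 genes passed an unadjusted p of 0.05.

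The other receptors, adaptors and kinases gave no call in any comparison. Myd88, the adaptor of interleukin-1 and most Toll-like receptors, had medians of 63.8 CPM in Apoe-/- phagocytic, 70.5 CPM in Apoe-/- non-phagocytic, 85.5 CPM in wild-type phagocytic and 76.8 CPM in wild-type non-phagocytic libraries (34.5 to 44.1 TPM). Cd40, a receptor for T cell help, had medians of 18.2 CPM in Apoe-/- phagocytic, 17.2 CPM in Apoe-/- non-phagocytic, 22.2 CPM in wild-type phagocytic and 5.23 CPM in wild-type non-phagocytic libraries (2.45 to 10.9 TPM), with wild-type non-phagocytic libraries from 1.86 to 31.4 CPM. Ripk2, the kinase of NOD receptors, had medians of 10.8 CPM in Apoe-/- phagocytic, 11.3 CPM in Apoe-/- non-phagocytic, 10.7 CPM in wild-type phagocytic and 14.8 CPM in wild-type non-phagocytic libraries (3.09 to 4.76 TPM). Traf1, an adaptor that NF-kB induces, had medians of 34.6 CPM in Apoe-/- phagocytic, 30.1 CPM in Apoe-/- non-phagocytic, 18.4 CPM in wild-type phagocytic and 33.8 CPM in wild-type non-phagocytic libraries (9.06 to 13.8 TPM) within 0.965 to 78.4 CPM. Birc3, the ubiquitin ligase cIAP2, had medians of 46.8 CPM in Apoe-/- phagocytic, 51.5 CPM in Apoe-/- non-phagocytic, 76.6 CPM in wild-type phagocytic and 41.9 CPM in wild-type non-phagocytic libraries (27.6 to 43.6 TPM). Apart from Tnfrsf1b, none of this role had an unadjusted p under 0.05 in any comparison.

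The inflammasome genes were detected in all 22 libraries. Nlrp3, the sensor, had medians of 56.1 CPM in Apoe-/- phagocytic, 38.7 CPM in Apoe-/- non-phagocytic, 55.7 CPM in wild-type phagocytic and 50.7 CPM in wild-type non-phagocytic libraries (30.3 to 42.6 TPM). Casp1, the caspase that cleaves the interleukin-1 beta precursor, had medians of 26.7 CPM in Apoe-/- phagocytic, 27.2 CPM in Apoe-/- non-phagocytic, 37.5 CPM in wild-type phagocytic and 26.5 CPM in wild-type non-phagocytic libraries (17 to 26.1 TPM). Casp4, the mouse caspase-11 that senses intracellular lipopolysaccharide, had medians of 51.3 CPM in Apoe-/- phagocytic, 37.4 CPM in Apoe-/- non-phagocytic, 44.9 CPM in wild-type phagocytic and 35.9 CPM in wild-type non-phagocytic libraries (28.2 to 32.5 TPM). All 3 averaged log2 fold changes between the sorts were positive, from 0.13 to 0.28, with a smallest edgeR adjusted p of 0.563.

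Among the effectors, Ptgs2 and Tnfaip2 had positive averaged log2 fold changes between the sorts that did not pass the threshold. Ptgs2 encodes cyclooxygenase-2, which starts prostaglandin synthesis. It had 2.51, 4.06 and 70.1 CPM as lowest, median and highest in Apoe-/- phagocytic, 1.09, 8.09 and 26.9 CPM in Apoe-/- non-phagocytic, 5.86, 0.965, 3.43, 20.5 and 36.4 CPM in wild-type phagocytic and 6.34, 0.748, 1.49, 4.34 and 6.93 CPM in wild-type non-phagocytic libraries. The high phagocytic libraries were Apoe-/- replicates 2 and 5 and wild-type replicates 4 and 5, and the median of Apoe-/- phagocytic libraries lay below that of Apoe-/- non-phagocytic ones. The averaged log2 fold change was 1.45 ± 0.66 (edgeR adjusted p = 0.3), and 0.43 with counts scaled by transcript length. Tnfaip2, a cytoplasmic protein that tumour necrosis factor induces, had 18.9, 31.5 and 94.6 CPM in Apoe-/- phagocytic, 8.71, 14.1 and 81.1 CPM in Apoe-/- non-phagocytic, 19.9, 14.2, 19.3, 60.7 and 56.8 CPM in wild-type phagocytic and 4.93, 15.7, 8.2, 39 and 21.7 CPM in wild-type non-phagocytic libraries. All 6 Apoe-/- phagocytic libraries lay above every Apoe-/- non-phagocytic library except replicate 5, and the wild-type sorts overlapped. Its averaged log2 fold change was 0.83 ± 0.40 (edgeR adjusted p = 0.343), and it passed the threshold without Apoe-/- non-phagocytic replicate 5 (1.29, edgeR adjusted p = 0.0495). It also passed with the replicate number as a block, as given at the end.

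Icam1, an adhesion molecule for leukocytes, was the member nearest to a call between the genotypes in phagocytic cells. It had 88.6, 111 and 163 CPM as lowest, median and highest in Apoe-/- and 134, 194, 202, 132 and 197 CPM in wild-type phagocytic libraries. Non-phagocytic libraries held 74.8, 149.7 and 205 CPM in Apoe-/- and 85.3, 212, 169.6, 130.1 and 168 CPM in wild-type cells. The phagocytic groups overlapped, and the log2 fold change was -0.56 ± 0.24 (edgeR adjusted p = 0.74). Nos2, the inducible nitric oxide synthase that marks mouse macrophages activated by interferon and lipopolysaccharide, was near the limit of detection. It ranged over 0 to 5.42 CPM, with medians of 1.71 CPM in Apoe-/- phagocytic, 0.42 CPM in Apoe-/- non-phagocytic, 0.965 CPM in wild-type phagocytic and 1.41 CPM in wild-type non-phagocytic libraries (0.0534 to 0.353 TPM), and was not tested.

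Genes of the pathway outside the list included calls between the sorts. Of 81 further NF-kB and cytokine pathway genes, 71 were tested, and in the averaged comparison 4 were called higher and 1 lower in phagocytic cells (edgeR, Benjamini-Hochberg). Over all 12415 genes tested, 223 were called higher and 70 lower (2.36% in all). The median log2 fold change of the 71 was 0.06. Sod2, the mitochondrial superoxide dismutase and a target of NF-kB, averaged 331 ± 162 CPM in Apoe-/- phagocytic, 134 ± 37.5 CPM in Apoe-/- non-phagocytic, 269.8 ± 120.4 CPM in wild-type phagocytic and 118 ± 32.7 CPM in wild-type non-phagocytic libraries (SD, n = 6, 6, 5 and 5). It rose by 1.25 ± 0.22 on the log2 scale (2.37-fold; edgeR adjusted p = 0.00144), a call kept without any 1 of the 22 libraries. In Apoe-/- cells alone it was the only one of the 71 called (1.3 ± 0.30, edgeR adjusted p = 0.04), against 0.467% of all genes, and that call was lost without any of 9 single libraries. These were Apoe-/- phagocytic replicates 4, 5 and 6, Apoe-/- non-phagocytic replicates 1, 2, 3, 4 and 6 and wild-type non-phagocytic replicate 3. At an unadjusted p under 0.05 stood 11 (15.5%) in Apoe-/- cells, against 9.93% of all genes. Among them Ier3 and Il6ra were lower in phagocytic cells, with log2 fold changes of -0.71 to -0.36 and -0.74 to -0.55 over the alternative settings. In wild-type cells 0 of 71 were called, against 0.209% of all genes, and 9 (12.7%) had an unadjusted p under 0.05, against 7.74%. Il10rb was among these 9, higher in phagocytic cells by 0.57 to 0.73 on the log2 scale over the alternative settings.

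Ptges, the prostaglandin E synthase that works beside cyclooxygenase-2, rose by 2.72 ± 0.54 (edgeR adjusted p = 0.00494) and kept its call without any 1 library. It averaged 18.3 ± 11.2 CPM in Apoe-/- phagocytic, 5 ± 2.4 CPM in Apoe-/- non-phagocytic, 26.1 ± 29.4 CPM in wild-type phagocytic and 2.35 ± 2.28 CPM in wild-type non-phagocytic libraries (SD). In wild-type cells its log2 fold change was 3.57 ± 0.83 (edgeR adjusted p = 0.0661). Ikbke, a kinase related to the IkB kinases, rose by 1.12 ± 0.28 (edgeR adjusted p = 0.0276). Its call was lost without any of 8 single libraries, namely Apoe-/- phagocytic replicates 1, 4 and 5, wild-type phagocytic replicates 4 and 5 and wild-type non-phagocytic replicates 1, 2 and 3. Csf1, the growth factor of microglia, rose by 0.88 ± 0.24 (edgeR adjusted p = 0.0461), and Zfp36, which destabilises cytokine mRNA, fell with a log2 fold change of -0.43 ± 0.12 (edgeR adjusted p = 0.0465). Both were near the threshold, and each call was lost in 17 of 22 fits without 1 library. Csf1 kept its call without Apoe-/- phagocytic replicate 2 or 5, wild-type phagocytic replicate 3, or wild-type non-phagocytic replicate 2 or 4. Zfp36 kept it without Apoe-/- phagocytic replicate 4 or 5, Apoe-/- non-phagocytic replicate 6, or wild-type non-phagocytic replicate 4 or 5. Zfp36 is also an immediate early gene, and the immediate early list was lower in phagocytic cells as given above. The border macrophage sum and Lyz2, as given above, were higher there, while the other monocyte genes were mixed, and their part in the levels of the 4 genes that rose was not tested.

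Between the genotypes 0 of the 71 were called in either sort, against 0.0322% of all genes in phagocytic and 0.0161% in non-phagocytic cells. At an unadjusted p under 0.05 stood 4 (5.63%, against 6.62%) in phagocytic and 3 (4.23%, against 3.8%) in non-phagocytic cells. For the interaction of genotype and sort 0 were called, as over all genes, and 1 (1.41%, against 2.42%) had such a p. In phagocytic cells the 4 were Tab1 and Map3k7, which encode an adaptor and the kinase TAK1 upstream of the IkB kinases, Tbk1, a kinase of interferon induction, and Il1r2, the decoy receptor of interleukin-1. Tab1 averaged 14.3 ± 4.41 CPM in Apoe-/- and 27.9 ± 12.7 CPM in wild-type phagocytic libraries (SD; log2 -0.96 ± 0.33, edgeR adjusted p = 0.565). Il1r2 had a log2 fold change of -2.33 ± 1.03 (edgeR adjusted p = 0.74) that turned to 0.95 without wild-type phagocytic replicate 4. The 12 neutrophil markers of that library summed to 1174 CPM against 246 to 485 CPM in the other wild-type phagocytic libraries. It also had the highest monocyte sum (10639 CPM) and the lowest microglial sum (5311 CPM) of its group. The part of any such cells in the Il1r2 levels was not tested. In non-phagocytic cells the 3 were Ripk3, the kinase of necroptosis (-1.10 ± 0.42), Relb (-0.77 ± 0.32) and Map3k14 (-0.58 ± 0.27), a subunit and the activating kinase of the non-canonical NF-kB pathway, each with an edgeR adjusted p of 0.999.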

How the data were processed

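The deposited files of the 22 libraries hold, per their headers, estimated counts and TPM of every transcript as the authors' quantification gave them. The submitters' processing notes name Salmon 1.4.0, DESeq2 1.30.1, R 4.0.3 and the build mm10, without roles. Libraries were made with SMART-Seq2 per the file headers. A deposited table of FPKM values (genes above an FPKM of 5) was read for its header and for whether it lists the members. Read filters and the authors' annotation: not given in the sources used here.

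Transcripts were matched to GENCODE M21 (GRCm38, which is mm10). Of 116248 transcripts, 116072 matched, and the other 176, with 0.118% to 0.262% of the reads, were left out. For each of 35596 genes the estimated counts of its transcripts were added and rounded. Salmon shares reads among transcripts they fit equally, so counts of near-identical copies are uncertain. edgeR 4.0.16 in R 4.3.3 fitted its quasi-likelihood model to all 22 libraries and 4 groups (TMM scaling, filterByExpr by group), with Benjamini-Hochberg adjustment over 12415 genes and a threshold of 0.05. The common biological coefficient of variation was 0.426. CPM use the same scaling. SE is the size of the log2 fold change divided by the square root of F. The 6 comparisons were the sorts within each genotype, the genotypes within each sort, the mean effect of the sort, and its difference between genotypes. The scripts were tested on simulated data. No 2 libraries were copies of each other by a chi-square test of their counts. Reads carry no molecular identifiers, so the limit given for 0 reads covers counting error only.

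The members and gene lists were chosen with earlier results of these data known. Every member is named. Fold changes are given for members with an unadjusted p under 0.05 in a comparison, and other pathway genes are named where called or, up to 5 per comparison, by smallest unadjusted p under 0.05. Alternatives covered DESeq2 1.42.0, other scaling, filters, satellite-like reads, length-scaled counts, a replicate block and leaving out libraries.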

Additional observations from a re-analysis of the deposited data

Results flagged for a closer look

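Within groups of 5 or 6 libraries, 143 sets of member levels were searched for a library that stood far from the others by Dixon's criterion, and 15 met it. Chance meets it in about 1 in 20 sets of normally distributed values. These CPM were not transformed, and the sets share the same libraries. The number that met it therefore cannot be set against that rate. Of these 15, 10 lay in replicate 5 of the Apoe-/- groups, 6 in the phagocytic and 4 in the non-phagocytic library.

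In Apoe-/- phagocytic replicate 5, Il12b reached 351 CPM against 2.78 to 30.8 CPM in the other 5 libraries, and Il1b reached 604.5 CPM against 78.0 to 236 CPM. In the same library Il6 reached 68.5 CPM against 4.55 to 21.0 CPM, and Il10 reached 30.6 CPM against 0.557 to 6.82 CPM. Nfkb2 reached 157 CPM there against 50.2 to 77.8 CPM, and Tnfaip2 reached 94.6 CPM against 18.9 to 40.2 CPM. In Apoe-/- non-phagocytic replicate 5, Birc3 stood at 105.7 CPM against 40.6 to 54.4 CPM, Tnfaip2 at 81.1 CPM against 8.71 to 16.2 CPM, Tnip1 at 25.2 CPM against 15.3 to 18.3 CPM, and Il10 at 3.77 CPM against 0 to 1.35 CPM.

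The other 5 were spread over 5 libraries. Tnfsf9 reached 29.1 CPM in Apoe-/- phagocytic replicate 2 against 0 to 10.8 CPM, and Casp1 reached 56.8 CPM in Apoe-/- phagocytic replicate 4 against 17.3 to 31.7 CPM. Il12b reached 67.9 CPM in wild-type phagocytic replicate 2 against 0 to 18.0 CPM. Nfkbiz reached 126 CPM in wild-type non-phagocytic replicate 5 against 95.1 to 102 CPM, and Osm was low at 45.0 CPM in wild-type non-phagocytic replicate 4 against 58.5 to 63.4 CPM.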

How the results depend on the processing

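Over 36 named results (a gene in a comparison), 1228 alternative values were computed, of which 1125 kept their direction and side of the threshold, 65 lost a call, 36 gained one and 2 turned round. DESeq2 and other size factors called 0 members in all 6 comparisons, as did the stricter filter, the removal of satellite-like genes and length-scaled counts. Without the filter on low counts the members called were 1 between the genotypes in non-phagocytic cells (Il12b), 1 between the sorts in Apoe-/- cells, 1 in wild-type cells (Il1rn in each) and 2 averaged over the genotypes (Il1rn and Ptgs2). With the satellite-like share as covariate, 1 member was called in Apoe-/- cells and 1 in the average, Il1rn in each. Leaving out each library in turn gave 0 to 1 called members in the averaged comparison, and 0 in the other 5. Il1r2 between the genotypes in phagocytic cells turned to 0.96 without both wild-type replicates numbered 4, and ran from -2.66 to 0.95 when each library was left out. The alternatives without both Apoe-/- replicates numbered 5, with the block and the satellite-like share together, and with the block without each number in turn were chosen after seeing the data.

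Replicate numbers are shared by the sorts of a genotype. Deviations of same-numbered libraries correlated with r from 0.04 to 0.42 over genes, 3 of 11 pairs lay at or under 0.1, and 7 of 11 pairs correlated better with each other than with other numbers, which is a hint from the data and not the design. With the number as a replicate block, Il1rn was called in Apoe-/- cells (log2 2.04, edgeR adjusted p = 0.00234), in wild-type cells (2.27, edgeR adjusted p = 0.00312) and averaged (2.15, edgeR adjusted p = 2.83e-05). Under the block, members called were 1 in Apoe-/- cells, 1 in wild-type cells and 3 averaged, the others being Tnfaip2 (0.99, edgeR adjusted p = 0.00909) and Tnfrsf1b (0.52, edgeR adjusted p = 0.0151). Of the other pathway genes it added calls of Ikbke in Apoe-/- cells (1.34, edgeR adjusted p = 0.00086) and of Ptges (3.39, edgeR adjusted p = 0.00252) and Sod2 (1.12, edgeR adjusted p = 0.00197) in wild-type cells. It changed no other call of a named gene. With the satellite-like share added to the block, the members called were 1, 1 and 2. In the block fit Il1rn was called without each of the 11 numbers in turn, with edgeR adjusted p of at most 0.0210 in Apoe-/- cells, 0.0163 in wild-type cells and 0.000137 averaged. The genotype comparisons have no block, since the genotypes share no pools.

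Counts over all genes moved more. Between the sorts in Apoe-/- cells, 58 genes became 168 with DESeq2, 137 without the filter, 255 with the block, 144 with the block and the satellite-like share, 16 without Apoe-/- non-phagocytic replicates 2 and 5, 2 without both Apoe-/- replicates numbered 5, and 18 to 89 without single libraries (18 without Apoe-/- phagocytic replicate 5). In wild-type cells 26 became 103 with DESeq2, 122 without the filter, 135 with the block, 118 with the block and the satellite-like share, 59 with that share alone, and 13 to 64 without single libraries (13 without wild-type non-phagocytic replicate 3, 64 without wild-type non-phagocytic replicate 4). Averaged over the genotypes 293 became 513 with DESeq2, 644 with the block, 165 without both Apoe-/- replicates numbered 5 and 191 to 355 without single libraries. Between the genotypes in phagocytic cells 4 became 19 with DESeq2, 96 without the filter, 2 with only the groups compared in the fit and 3 to 23 without single libraries (23 without Apoe-/- phagocytic replicate 1). In non-phagocytic cells 2 became 16 without the filter. For the interaction of genotype and sort, 0 became 2 with DESeq2 and 17 without the filter. A fit of only the groups compared was not made for the 2 comparisons that use all groups. Depth limits Il10, Nos2 and the lower cytokine genes most.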
